A study of Mus musculus with 6 samples.

Results

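The 39 genes described here encode heat shock proteins, their cochaperones, the cytosolic chaperonin CCT and the heat shock factors HSF1 and HSF2. They were chosen by symbol, from a list of chaperone genes, and each was found once in a table of 37224 genes. All 39 were among the 12588 genes with an RPKM (reads scaled to gene length and library depth) of at least 1 in any library. Hspa1a reached 1 only in the wild-type arsenite library and Bag3 only in the null libraries. Their places in the counts below follow in part from how they passed and lend no support. The group is called cytosolic, but 4 of its genes, Hspa9, Hspd1, Hspe1 and Trap1, encode chaperones of the mitochondrion.

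Chaperones bind unfolded or partly folded proteins and help them to fold, to be held without clumping, or to be passed on for breakdown. HSP70 works in cycles of ATP use that are started by HSP40 proteins and ended by exchange factors such as the HSP110 and BAG proteins, HSP90 finishes the folding of client proteins with its own cochaperones, small heat shock proteins hold unfolded proteins, and the ring-shaped chaperonins fold proteins inside a chamber. HSF1 switches many of these genes on by binding repeats of the bases GAA and TTC, called heat shock elements, and arsenite, which reacts with the thiol groups of proteins, is a classical inducer of this response in many cell types.

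RNA-seq had been made from mouse embryonic fibroblasts (MEF, connective tissue cells grown from embryos) on a C57BL/6 background, in 4 groups of 1 library each. The groups were wild-type cells and Dot1L-/- cells, each without treatment or after 24 h of sodium arsenite, an inorganic arsenic salt; Dot1L encodes the enzyme that methylates lysine 79 of histone H3. The dose is labelled low, and the protocol lists 5 and 10 µM beside 0 µM without saying which was sequenced. All cells were grown in medium with serum, the labels do not say how many embryos, lines or clones the cells came from, and 2 libraries of a histone acetylation mark were not analysed here. Since no group has a replicate, no difference below was tested, and each sets 1 library against another.

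The controls held 62972880 reads (wild type) and 64699847 reads (Dot1L null), and the arsenite libraries 10833103 and 11879632. Dot1l itself had an RPKM of 30.4 and 5.71 in wild type (control, arsenite) and of 9.59 and 1.24 in the null, so it was 3.17-fold lower in the untreated null than in untreated wild type and 4.61-fold lower between the arsenite libraries. The table gives totals per gene and does not show a deleted part. Hmox1, which encodes the arsenite-inducible enzyme heme oxygenase 1, had 82.4 and 416 in wild type and 405 and 618 in the null, so its untreated null level, 4.92-fold above untreated wild type, was close to that of wild type with arsenite. Of 11 fibroblast markers 8 passed the filter, with Thy1 listed at 0 in all 4 libraries and Fap and Lum near 0. Their summed RPKM was 2653 and 4990 in wild type (control, arsenite) and 2275 and 12118 in the null, most of it from S100a4 and Vim. The higher sums with arsenite came from S100a4 (688, 4191, 949 and 10957, in the same order), while Col1a1 (335, 63.9, 133 and 72.2), Col1a2, Col3a1, Pdgfra, Pdgfrb and Dcn were lower with arsenite in both genotypes. Markers of other cells passed in 3 of 8 cases for macrophages and leukocytes (summed RPKM 4.81 to 23.8), 1 of 7 for epithelium (0.319 to 3.26), 1 of 6 for endothelium (0.0797 to 1.87) and 0 of 6 for pluripotent and germ cells (0.363 to 0.894). Of these markers only Epcam, Emcn, Dppa3 and Zfp42 were at 0 throughout, and none of those for macrophages and leukocytes was. Cd14 had 21.1 and 11.6 in wild type, Lyz2 1.16 and 2.99 in the null, and Cd68 2.02 to 5.56. Cdh1 had 2.71 in the wild-type control and Cdh5 was above 1 in the null control. In bulk RNA, fewer cells of a type and less RNA per cell cannot be told apart.

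The promoters are shown first because they were searched for the letters that heat shock factors read. RefSeq promoter windows (GRCm38.p6, 250 bases before to 50 bases after the start) were found for 32 of the 39 genes (the others are Hsp90aa1, Hsp90ab1, Hspa8, Cryab, Hsf1, Hspa9 and Cct4). Capitals mark only those GAA and TTC units that lie in one of the arrangements described after the sequences, and other gaa and ttc triplets are in lower case. Hspe1 and Hspd1 are shown because both start sites flank the same element, Dnajb6 because it holds an element of the same kind, and Hspb1, Hspa1a and Hspa1b because they hold shorter pairs and were among the genes that differed most. The stretches are from chr1:55088053-55088082 (plus strand, Hspe1 and Hspd1), chr5:29735798-29735897 (plus, Dnajb6), chr5:135887769-135887868 (plus, Hspb1), chr17:34972207-34972306 (minus, Hspa1a) and chr17:34959289-34959388 (minus, Hspa1b).
Hspe1 and Hspd1: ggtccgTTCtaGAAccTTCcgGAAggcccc
Dnajb6: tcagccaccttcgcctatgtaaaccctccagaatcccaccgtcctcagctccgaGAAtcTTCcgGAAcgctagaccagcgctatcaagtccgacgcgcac
Hspb1: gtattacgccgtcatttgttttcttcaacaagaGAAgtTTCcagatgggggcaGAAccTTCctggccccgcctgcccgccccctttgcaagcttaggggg
Hspa1a: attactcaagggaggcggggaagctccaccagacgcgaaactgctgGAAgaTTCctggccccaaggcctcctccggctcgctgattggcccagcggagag
Hspa1b: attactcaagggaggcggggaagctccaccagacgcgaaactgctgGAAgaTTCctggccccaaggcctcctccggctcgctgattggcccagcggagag

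The arrangements below were searched on both strands, with N for any base. The longest, GAANNTTCNNGAA, has 3 units and contains both shorter ones, the head-to-head pair GAANNTTC and the tail-to-tail pair TTCNNGAA. The 3-unit element was found in 5 of the 32 genes (15.6%), Chordc1, Dnajb6, Hspd1, Hspe1 and Hsph1, and in 0.662% of 27025 mouse genes with a window. The head-to-head pair was found in 14 of 32 (43.8%) against 9.04%, the tail-to-tail pair in 8 (25.0%) against 9.60%, and any of them in 17 (53.1%) against 17.0%. Between the start sites of Hspe1 (base 55088148, plus strand) and Hspd1 (base 55087932, minus strand) lie 215 bases, and the printed run of 4 units begins 89 bases before the Hspe1 start. Hspd1 has a further annotated start. The windows of Hspa1a and Hspa1b are the same at 296 of 300 bases, and the 100 printed bases are identical. A match is a description of the letters, and binding was not measured.

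The genes spanned a wide range of levels in every library. Hsp90ab1 and Hspa8, the constitutive HSP90 and HSP70 of the cytosol, were the most abundant chaperone transcripts per length in all 4 libraries. Hsp90ab1 had RPKM values of 1246, 1173, 1395 and 951 (here and below in the order wild-type control, wild-type arsenite, null control, null arsenite), and Hspa8 had 807, 1254, 767 and 888. The stress-inducible HSP70 genes Hspa1a and Hspa1b were low, between 0 and 7.40. Bag3 was the lowest gene in both wild-type libraries (0.0981 and 0.249) and Hspa1a in both null libraries. Together the 39 genes took 1.61%, 1.91%, 1.85% and 1.33% of the reads, and 1.55%, 1.03%, 1.70% and 0.709% of the RPKM sum. The null with arsenite was lowest by both measures, while the highest was wild type with arsenite by reads and the null control by RPKM.

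**Figure D1:**
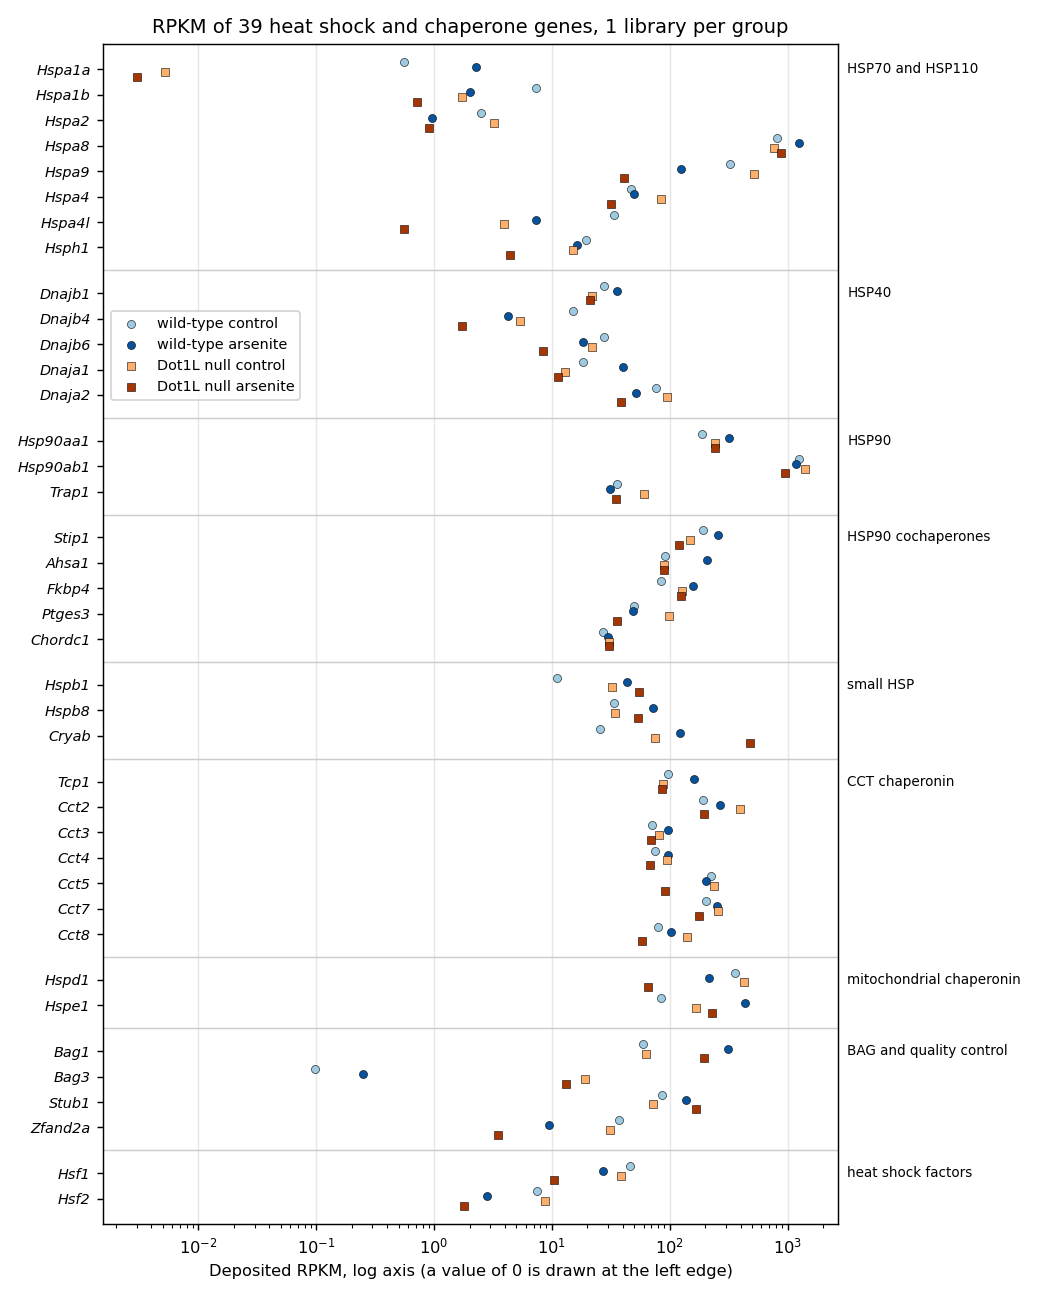
RPKM (log axis) of each of the 39 genes in the 4 libraries, grouped by chaperone class, with 1 point per library (circles wild type, squares Dot1L null, pale control, dark arsenite). Most genes lie between 10 and 1000 in every library, while Hspa1a, Hspa1b and Hspa4l lie lower in the null, and Bag3 is under 1 in both wild-type libraries.

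Differences are given as log2((RPKM + 1)/(RPKM + 1)), on which low genes differ by less than their plain ratio, and a gene counts as higher or lower from 2-fold on that scale. Folds in the text are plain RPKM ratios, with a 95% counting interval from recovered reads that covers counting error only. With arsenite in wild type, 8 of the 39 genes were at least 2-fold higher, against 12.8% of all genes, and 6 were lower, against 35.7%. Hspa1a, 1 of the 8, passed the filter only through the wild-type arsenite library. The median of the 39 was 0.29 and that of all genes −0.56. In the null, 3 were higher, against 15.2% of all genes, and 16 were lower, against 37.1%, with a median of −0.54 beside −0.53 for all genes. Bag1 and Cryab were higher in both genotypes, 2 of 39 genes beside 1058 of all 12588. Hspa4l, Hspa9, Dnajb4, Zfand2a and Hsf2 were lower in both, 5 of 39 beside 3307 of 12588.

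The overall split depends on scaling. Of all genes past 2-fold with arsenite in wild type, 26.4% were higher as deposited, 52.8% after centring each comparison on the median of all genes, 43.9% after scaling to the 75th percentile, 50.7% after removing the trend on gene length, and 9.33% after rescaling the RPKM columns to the same sum. The null gave 29.0%, 49.6%, 46.5%, 48.8% and 12.6%. The median of all genes was −0.17 after 75th percentile scaling and −1.47 after rescaling to the same sum in wild type, and −0.12 and −1.38 in the null. Under the same-sum scaling 4 chaperone genes were higher and 15 lower in wild type, where 6.36% of all genes were higher and 61.8% lower, and after centring 15 were higher and 3 lower, against 21.6% and 19.4%. For the 39 genes, a direction given here that turns under one of these 4 scalings is marked where it stands. Past 2-fold under all 4, with a pseudocount of 0.1 and with other filters, were Hspb1, Cryab, Hspe1 and Bag1 (higher) and Zfand2a (lower) in wild type, and Cryab (higher) with Hspa9, Hspd1, Zfand2a, Hsf1 and Hsf2 (lower) in the null.

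**Figure D2:**
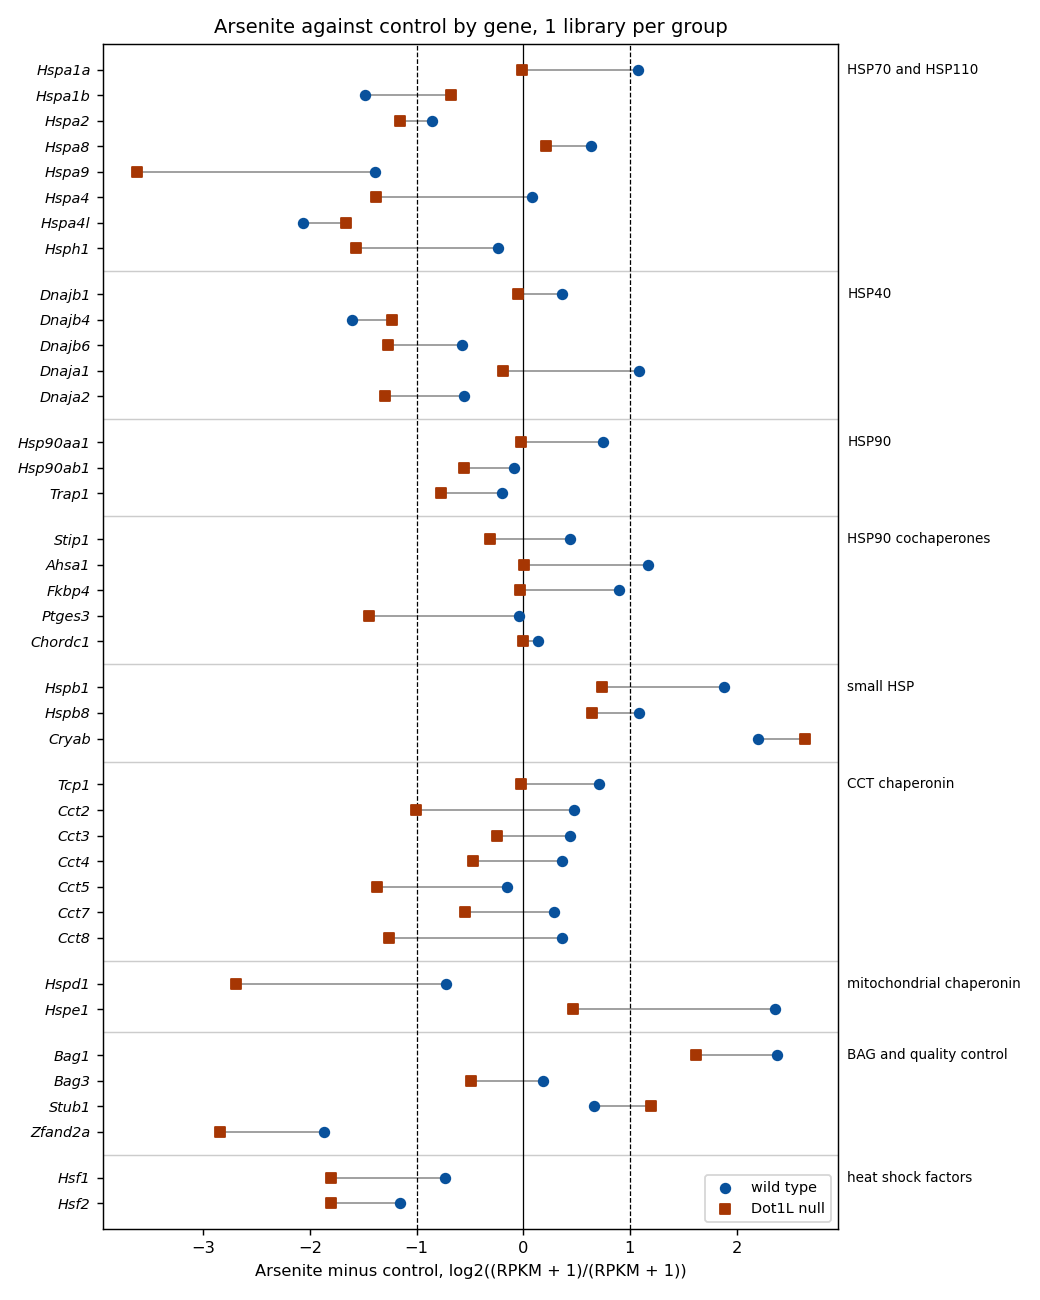
Arsenite against control for each gene, as log2((RPKM + 1)/(RPKM + 1)), in wild type (circles) and the Dot1L null (squares), with dashed lines at 2-fold and a line joining each gene's 2 values. The square lies left of the circle for 34 of the 39 genes.

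Small heat shock proteins, which hold unfolded proteins without using ATP, were represented by 3 genes. All 3 were at least 2-fold higher with arsenite in wild type, against 12.8% of all genes, and 1 in the null, against 15.2%. Cryab (ENSMUSG00000032060, chromosome 9, 50745951 to 50756636 in GRCm38), which encodes alphaB-crystallin, had RPKM values of 25.7, 122, 75.7 and 477. It was 4.75-fold higher with arsenite in wild type (4.44 to 5.09) and 6.30-fold higher in the null (6.08 to 6.52), and the null exceeded wild type 2.95-fold without and 3.90-fold with arsenite. The null with arsenite was thus its highest library and the wild-type control its lowest. Hspb1 (ENSMUSG00000004951, chromosome 5, 135887919 to 135889563), which encodes HSP27 (HSP25 in mouse), had 11.1, 43.6, 32.2 and 54.4. It was 3.94-fold higher in wild type (3.50 to 4.42) and 1.69-fold higher in the null (1.54 to 1.84), where its direction turned after removal of the length trend and under the same-sum scaling. Its untreated level was 2.91-fold higher in the null (2.67 to 3.17). As deposited this was below the treated wild-type level (32.2 against 43.6), a comparison that was not followed over the scalings. Hspb8, a partner of BAG3, had 33.4, 72.0, 34.2 and 53.8, 2.16-fold higher in wild type and 1.58-fold higher in the null (the latter turning under the same-sum scaling), from control levels that were nearly equal.

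Of the 8 HSP70 and HSP110 genes 1 was higher and 3 lower in wild type (12.5% and 37.5%), near the 12.8% and 35.7% of all genes. In the null 5 were lower (62.5%, all genes 37.1%). Hspa8, which encodes the constitutive HSC70, was 1.55-fold higher with arsenite in wild type (1.54 to 1.57) and 1.16-fold higher in the null (1.15 to 1.17), and under the same-sum scaling it was lower in both. Hspa1a (ENSMUSG00000091971, chromosome 17, 34969359 to 34972156) encodes a stress-inducible HSP70 and had RPKM values of 0.559, 2.28, 0.00523 and 0, from 104, 73, 1 and 0 reads. It was 4.08-fold higher with arsenite in wild type (2.98 to 5.56), and between the arsenite libraries the null was at least 26.7-fold lower, taking 3 reads as the floor of a library with 0. Its near-identical neighbour Hspa1b (ENSMUSG00000090877, chromosome 17, 34956429 to 34959238) had 7.40, 2.01, 1.74 and 0.721, lower with arsenite 3.68-fold in wild type and 2.42-fold in the null. These genes share most of their sequence, so how the counting split their reads is uncertain and both values are too. Hspa2, best known from male germ cells, had 2.52, 0.952, 3.23 and 0.902 and was lower with arsenite in both genotypes, past 2-fold on the log2 scale in the null.

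Hspa9, which encodes the mitochondrial HSP70 mortalin, had RPKM values of 327, 124, 518 and 41.1. With arsenite it was 2.64-fold lower in wild type (2.57 to 2.71) and 12.6-fold lower in the null (12.0 to 13.2), the lowest difference of the 39 genes in the null. The null had the higher level without arsenite and the lower level with it. Hspa4, an HSP110-type exchange factor, had 46.6, 49.3, 84.8 and 32.1. Its wild-type libraries differed 1.06-fold (1.02 to 1.10), and under the same-sum scaling the difference turned; in the null it was 2.64-fold lower. Hspa4l, its paralog, had 33.7, 7.31, 3.91 and 0.557, lower with arsenite 4.61-fold in wild type and 7.03-fold in the null. Hsph1, which encodes HSP105, had 19.5, 16.4, 15.0 and 4.38. It was 3.42-fold lower in the null, while its wild-type difference of −0.24 on the log2 scale was above 0 after centring, after 75th percentile scaling and after removal of the length trend.

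HSP40 proteins deliver clients to HSP70. Dnaja1 had RPKM values of 18.2, 39.8, 12.9 and 11.2 and was the 1 of 5 that was at least 2-fold higher with arsenite in wild type, at 2.19-fold (2.10 to 2.27). Dnajb4 was the 1 that was lower, with 15.1, 4.28, 5.39 and 1.72. Each is 20.0% of the class, where 12.8% of all genes were higher and 35.7% lower. Dnajb1, the HSP40 classically induced with HSP70, had 27.5, 35.7, 22.1 and 21.2, 1.30-fold higher in wild type (1.20 to 1.39) and lower under the same-sum scaling. In the null Dnajb4, Dnajb6 and Dnaja2 were lower (60.0% of the class, all genes 37.1%), 3.14-fold, 2.58-fold and 2.49-fold. Dnajb6, whose promoter holds the printed 3-unit element, had 27.8, 18.3, 21.7 and 8.43, so arsenite libraries were below their controls in both genotypes as deposited, with the wild-type difference turning after removal of the length trend. Dnaja2 had 77.0, 52.2, 95.7 and 38.4, and its wild-type difference turned after centring.

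None of the 3 HSP90 genes was past 2-fold in either genotype. Of all genes 12.8% were higher and 35.7% lower in wild type, and 15.2% and 37.1% in the null. Hsp90aa1, the inducible cytosolic form, had RPKM values of 188, 316, 243 and 240, 1.68-fold higher with arsenite in wild type (1.65 to 1.71) and lower there under the same-sum scaling. Hsp90ab1 was 1.06-fold and 1.47-fold lower with arsenite in wild type and the null, but both directions turned under 75th percentile scaling, and that in wild type also after centring and after removal of the length trend. Trap1, the mitochondrial HSP90, had 35.5, 30.9, 60.3 and 34.9. Its null control was the high library and the others lay close together.

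Cochaperones of HSP90 gave 1 of 5 genes higher in wild type (20.0%, all genes 12.8%) and 1 lower in the null (20.0%, all genes 37.1%). Ahsa1, which encodes the activator of the HSP90 ATPase, had RPKM values of 91.8, 208, 89.3 and 90.0. It was 2.26-fold higher with arsenite in wild type (2.17 to 2.36), while its null libraries differed by 1.01-fold (0.952 to 1.07), an interval that includes 1. Fkbp4, a prolyl isomerase of steroid receptor complexes, had 84.2, 158, 128 and 126, 1.88-fold higher in wild type (1.82 to 1.94) and −0.03 on the log2 scale under the same-sum scaling. Stip1, the HOP protein that links HSP70 and HSP90, had 191, 259, 148 and 119. Ptges3, the p23 cochaperone, had 50.1, 48.8, 97.8 and 35.3 and was 2.77-fold lower with arsenite in the null. Chordc1, whose promoter holds the 3-unit element, had 27.2, 30.1, 30.6 and 30.5, the narrowest range of the 39 genes.

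The CCT chaperonin folds actin and tubulin in a ring of 8 different subunits, of which 7 (Tcp1, Cct2, Cct3, Cct4, Cct5, Cct7 and Cct8) were among the 39 genes. None of the 7 was past 2-fold with arsenite in wild type, where 12.8% of all genes were higher and 35.7% lower. Their median there was 0.36, beside −0.56 for all genes. In the null 3 were lower (42.9%, all genes 37.1%), and the median was −0.54, near the −0.53 of all genes. Tcp1 had RPKM values of 96.8, 159, 87.4 and 86.3, and Cct2 193, 269, 395 and 197. Cct8 had 80.2, 103, 140 and 57.9, 1.29-fold higher with arsenite in wild type (1.24 to 1.34) and 2.42-fold lower in the null. Wild type with arsenite was above its control for every subunit but Cct5, whose values were 226, 204, 238 and 91.3, and the higher values turned under the same-sum scaling while that of Cct5 turned under the other 3 scalings. In the null the arsenite library was below its control for all 7; for Tcp1, Cct3 and Cct4 this turned after centring, 75th percentile scaling and removal of the length trend, and for Cct7 after 75th percentile scaling. Cct3, Cct4 and Cct7 had 70.6, 75.5 and 205 in untreated and 96.2, 97.2 and 251 in treated wild type, against 81.9, 95.1 and 257 and then 68.9, 68.2 and 177 in the null.

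The mitochondrial chaperonin pairs HSP60, encoded by Hspd1, with its lid HSP10, encoded by Hspe1, and both genes flank the element shown above. Hspe1 (ENSMUSG00000073676, chromosome 1, 55088148 to 55091317) had RPKM values of 83.6, 432, 166 and 229. It was 5.17-fold higher with arsenite in wild type (5.01 to 5.34) and 1.38-fold higher in the null (1.33 to 1.43), where it was lower under the same-sum scaling. Hspd1 (ENSMUSG00000025980, chromosome 1, 55077833 to 55088243) had 355, 214, 430 and 65.6, which was 1.66-fold lower in wild type (1.61 to 1.70) and 6.55-fold lower in the null (6.27 to 6.85). The partners thus lay on opposite sides of 0 in each genotype as deposited, and both held more RPKM in the null control than in the wild-type control. Rows named as pseudogenes of these 39 genes numbered 12, of which 2 passed the filter; Hspd1-ps3 reached an RPKM of 2.53 and Ptges3-ps 3.58, both highest in the null with arsenite.

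Bag1, an exchange factor of HSP70 that links it to the proteasome, had RPKM values of 59.3, 313, 63.4 and 197 (ENSMUSG00000028416, chromosome 4, 40936398 to 40948294). It was 5.27-fold higher with arsenite in wild type (5.06 to 5.49) and 3.11-fold higher in the null (2.97 to 3.25), with both controls alike. Stub1, the ubiquitin ligase CHIP, had 86.3, 137, 72.8 and 168, 1.59-fold higher in wild type, turning under the same-sum scaling, and 2.31-fold higher in the null. Zfand2a (ENSMUSG00000053581, chromosome 5, 139471216 to 139484491) encodes AIRAP, the arsenite-inducible RNA-associated protein that acts on the proteasome. It had 36.9, 9.40, 31.2 and 3.48, so both arsenite libraries were below both controls, 3.92-fold lower in wild type (3.52 to 4.38) and 8.96-fold lower in the null (7.58 to 10.7). Bag3, which steers damaged proteins to autophagy, differed between the genotypes in both treatments and is described with that comparison.

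Both heat shock factor genes were lower with arsenite in both genotypes, but the median of all genes was too (−0.56 in wild type, −0.53 in the null). On the log2 scale Hsf1 had −0.73 and −1.80, and Hsf2 −1.15 and −1.80. Past 2-fold were Hsf2 in wild type and both in the null, where 35.7% and 37.1% of all genes were lower. Hsf1 had RPKM values of 45.7, 27.1, 38.6 and 10.4, 1.68-fold lower in wild type and 3.72-fold lower in the null. Hsf2 had 7.51, 2.83, 8.75 and 1.80, 2.66-fold and 4.85-fold lower. These are transcript levels, and the activity of either factor was not measured. Genes with and without an element in the promoter were set side by side as a description: the median difference with arsenite was 0.19 in wild type and −0.49 in the null over the 17 genes with any of the 3 arrangements, and 0.29 and −0.77 over the 15 without. Among the 5 genes with the 3-unit element, the wild-type differences ran from −0.72 (Hspd1) to 2.36 (Hspe1), 2 genes with the same element.

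Genotypes were then compared within each treatment. These comparisons use the same 4 libraries as those above and are no separate evidence. Without arsenite, 4 of the 39 genes were at least 2-fold higher in the null, against 6.45% of all genes, and 3 were lower, against 14.7%. The higher ones were Bag3, Cryab, Hspb1 and Cct2, and the lower ones Hspa4l, Hspa1b and Dnajb4. Bag3 passed the filter only through the null libraries. With arsenite 2 were higher in the null, Bag3 and Cryab, against 8.75% of all genes, and 12 were lower, against 16.9%. Medians of the 39 genes were 0.16 without and −0.61 with arsenite, and those of all genes −0.17 and −0.28. Of all genes past 2-fold, 30.5% were higher in the untreated null as deposited, 43.9% after centring, 39.2% after 75th percentile scaling, 45.9% without the length trend and 24.7% at the same sum; between the arsenite libraries the shares were 34.1%, 57.1%, 48.6%, 58.0% and 29.4%.

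Bag3 (ENSMUSG00000030847, chromosome 7, 128523583 to 128546981) had RPKM values of 0.0981, 0.249, 19.0 and 13.2, from 16, 7, 3184 and 407 reads. The null was 194-fold higher without arsenite (119 to 339) and 53.0-fold higher with it (25.5 to 133). Both null libraries thus stood far above both wild-type libraries, where the arsenite difference, 2.54-fold from few reads, had an interval that includes 1 (0.885 to 6.53). Hspb8, its partner, differed 1.02-fold between the controls (0.982 to 1.07). Hspa4l went the other way, 8.61-fold lower in the untreated null (8.29 to 8.94) and 13.1-fold lower with arsenite. Hspa1a was 107-fold lower in the untreated null, with 1 read against 104 and an interval of 18.8 to 4260.5, and Hspa1b 4.25-fold lower. The genes lower in the null with arsenite were Hspa1a, Hspa9, Hspa4l, Hsph1, Dnajb6, Dnaja1, Stip1, Ahsa1, Cct5, Hspd1, Zfand2a and Hsf1. Of these 12, Hspa9, Cct5 and Hspd1 were higher in the null than in wild type without arsenite, although Cct5, at 1.05-fold (1.04 to 1.07), turned under the same-sum scaling.

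The difference of the arsenite effects, the log2 difference in the null minus that in wild type, was at or below −1 in 14 of the 39 genes, against 12.8% of all genes, and at or above 1 in 0 of them, against 12.1%. It was below 0 in 34 of the 39 (87.2%) and in 53.0% of all genes, with medians of −0.76 and −0.06. The exceptions were Hspa1b, Hspa4l, Dnajb4, Cryab and Stub1. This value cancels most of what scaling shifts: between 13 and 16 genes were at or below −1 under every setting, none was at or above 1, and only Hspa4l turned, with a pseudocount of 0.1. The 12 that stayed at or below −1 throughout were the 14 without Hspa1a and Hsf1. Hspa1a had passed the filter only through the wild-type arsenite library. It uses all 4 libraries, was not tested against replicate error, and cannot be told apart from a difference between single cultures or libraries.

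**Figure D3:**
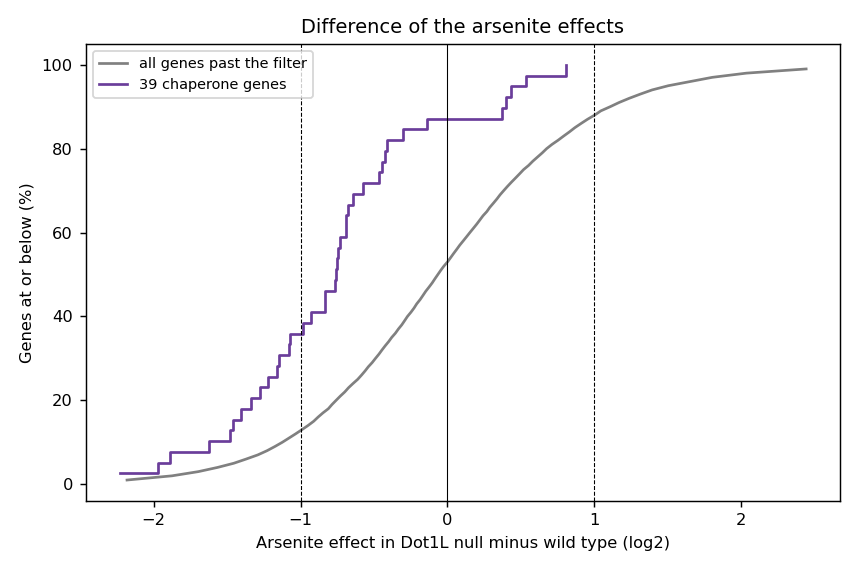
Share of genes (%) at or below each value of the arsenite effect in the null minus that in wild type (log2), for the 39 chaperone genes (steps) and for the 12588 genes past the filter (curve), with dashed lines at −1 and 1. The chaperone line crosses 0 at 87.2% and the line of all genes at 53.0%.

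The most negative differences were those of the mitochondrial chaperones Hspa9 (−2.23), Hspd1 (−1.97) and Hspe1 (−1.89). Trap1, the other mitochondrial one, had −0.57. After the first 3 came Cct8 (−1.62), Cct2 (−1.48), Hspa4 (−1.46), Ptges3 (−1.40), Hsph1 (−1.33), Dnaja1 (−1.28), Cct5 (−1.22), Ahsa1 (−1.16), Hspb1 (−1.15), Hspa1a (−1.08) and Hsf1 (−1.07). All 7 CCT subunits were between −1.62 and −0.69. Grouped after their values were seen, the 4 genes of mitochondrial proteins had a median of −1.93 and the other 35 one of −0.75, of which 11 were at or below −1. The most positive was Hspa1b at 0.81, whose values are uncertain as said, followed by Stub1 (0.54) and Cryab (0.43).

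Ratios of partner genes within a library do not depend on a factor common to that library, but removal of the length trend shifts genes of different length unequally: at their lengths the trend in wild type was 0.40 for Hspe1 and −0.33 for Hspd1. The pairs were picked with their values known. Hspe1 over Hspd1 was 0.236 and 2.02 in wild type (control, arsenite) and 0.385 and 3.49 in the null, so the lid exceeded the ring subunit per length only in the arsenite libraries. Hspa8 over Hspa9, cytosolic over mitochondrial HSP70, was 2.47 and 10.1 in wild type and 1.48 and 21.6 in the null. Hsp90aa1 over Hsp90ab1, inducible over constitutive HSP90, was 0.151 and 0.269 in wild type and 0.174 and 0.253 in the null. Cct6a, the remaining CCT subunit, over Cct2 was 1.21 and 0.389 in wild type and 0.794 and 0.104 in the null. In these 4 pairs both arsenite libraries lay on the same side of both controls. Of 11 pairs computed this was not so for Stip1 over Hsp90ab1 (0.153 and 0.221 in wild type, 0.106 and 0.125 in the null), Hspb2 over Cryab, and Hspa1a over Hspa1b.

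**Figure D4:**
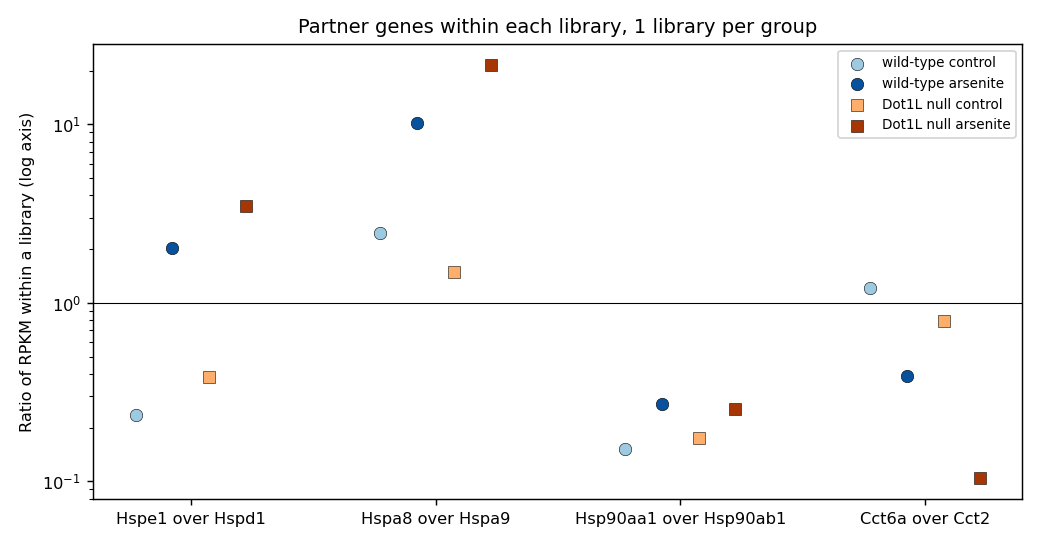
Ratio of RPKM of partner genes within each library (log axis), with 1 point per library and a line at a ratio of 1. Hspe1 over Hspd1 is 0.236 and 0.385 in the controls and 2.02 and 3.49 in the arsenite libraries.

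Arsenite differences followed gene length across the genome, and the chaperone genes were read against that trend. The median of all genes in wild type was 0.92 for lengths of 200 to under 1000 bases and −1.30 from 5000 bases. The chaperone genes were 1031 to 11792 bases long (median 2795, all genes 3434). Among the 8 of 1000 to under 2000 bases, which include Cryab, Hspb1, Bag1 and Hspe1, the median was 1.53 in wild type and 0.69 in the null, where all genes of that length had 0.33 and 0.31. From 5000 bases, the 5 chaperone genes had 0.08 and −1.27, and all genes −1.30 and −1.26. With the trend removed 14 of the 39 were higher and 2 lower in wild type, with a median of 0.51, and 5 higher and 6 lower in the null, with a median of −0.19. Of all genes, 15.8% were then higher and 15.3% lower in wild type, and 20.1% and 21.0% in the null. The difference of the arsenite effects was close to 0 for all genes in every class of length (−0.09 to 0.14), and its median over the chaperone genes lay between −0.95 and −0.73 in the 4 classes that held any. The part that length plays in these differences was not tested.

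**Figure D5:**
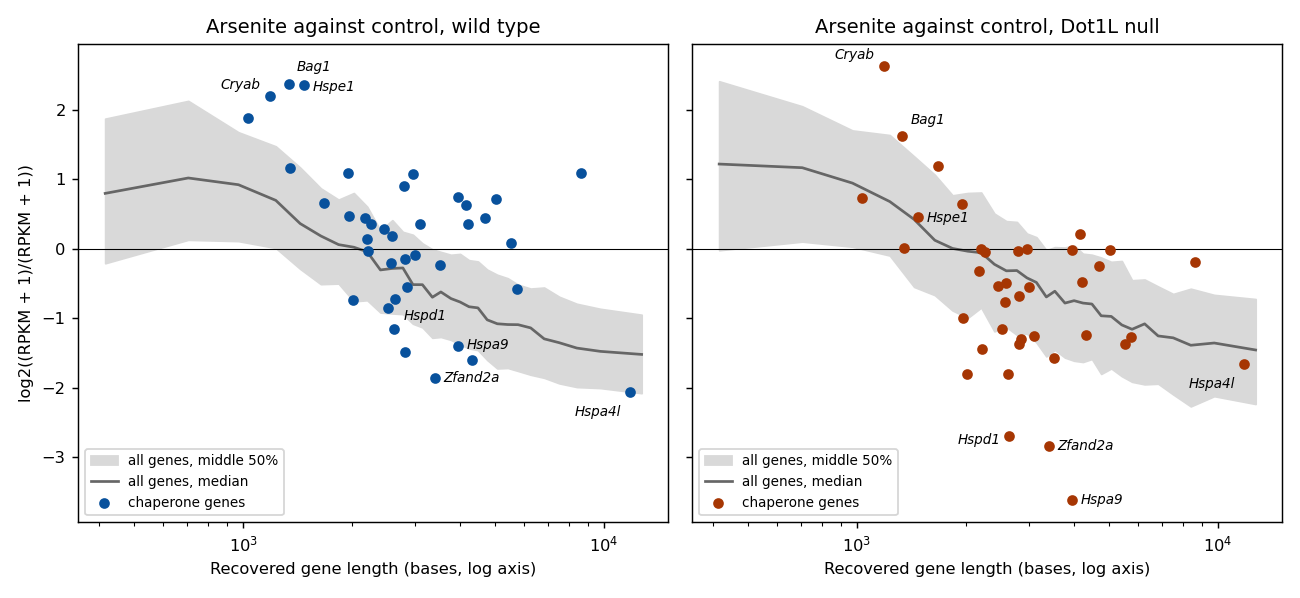
Arsenite against control, as log2((RPKM + 1)/(RPKM + 1)), by recovered gene length (bases, log axis) in wild type (left) and the Dot1L null (right), with points for the 39 chaperone genes and the median and middle 50% of all genes in bins of length. Cryab, Bag1 and Hspe1 lie above the band in wild type, and Hspa9, Hspd1 and Zfand2a below it in the null.

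Other chaperone genes, from a list made by role, were read in the same way. Of 58 listed, 57 were matched in the table and 52 passed the filter. With arsenite in wild type 15 were higher (28.8%, all genes 12.8%) and 10 lower (19.2%, all genes 35.7%). In the null 8 were higher and 18 lower, 15.4% and 34.6%, near the 15.2% and 37.1% of all genes. The null against wild type gave 5 higher and 5 lower without arsenite (9.62% each, all genes 6.45% and 14.7%). With arsenite it gave 3 and 18 (5.77% and 34.6%, all genes 8.75% and 16.9%). Hsf4, higher in both treatments, passed the filter only through the null libraries. Hspa12b, higher with arsenite, passed only through the null arsenite library. Their places in these counts follow in part from how they passed and lend no support. The difference of the arsenite effects was at or below −1 in 14 and at or above 1 in 1, Hspb2 (26.9% and 1.92%, all genes 12.8% and 12.1%). Prefoldin hands actin and tubulin to CCT. Of 7 remaining CCT and prefoldin genes past the filter, 5 were higher and 1 lower in wild type (71.4% and 14.3%, all genes 12.8% and 35.7%). In the null 3 were higher and 2 lower (42.9% and 28.6%, all genes 15.2% and 37.1%). The prefoldin genes differed among themselves. Pfdn5 had RPKM values of 64.4, 560, 42.4 and 578, 8.69-fold higher in wild type and 13.6-fold higher in the null. Pfdn1 had 59.2, 280, 71.9 and 225, and Pfdn6 37.4, 187, 51.8 and 125. The prefoldin genes Vbp1 (24.7, 17.2, 19.8 and 7.11) and Pfdn4 (9.12, 29.4, 9.37 and 7.35), added after their values were seen, were lower as deposited with arsenite in the null, and Vbp1 also in wild type. Pfdn2, added in the same way, had 18.9, 53.0, 40.3 and 43.2, with arsenite differences of 1.44 in wild type and 0.10 in the null (log2). Scaling was not followed for single genes outside the 39. Cct6a, in contrast, had 234, 105, 314 and 20.5, lower 2.24-fold in wild type and 15.3-fold in the null (13.9 to 17.0).

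All 3 further small heat shock genes that passed the filter were higher with arsenite in wild type, against 12.8% of all genes. Hspb2 had RPKM values of 2.08, 7.36, 2.69 and 19.4, highest in the null with arsenite, as Cryab was. Its annotated span (50751072 to 50752354) lies within that of Cryab on chromosome 9. How the counting split reads between them is not known. Hspb11 had 3.21, 10.6, 5.78 and 9.84, and Hspb6 26.9, 57.9, 18.2 and 22.1. Neither shared that peak in the null with arsenite, where only Hspb2 was past 2-fold. Of 15 further HSP90 cochaperone genes, 4 were higher and 3 lower in wild type (26.7% and 20.0%, all genes 12.8% and 35.7%). In the null 3 were higher and 5 lower (20.0% and 33.3%, all genes 15.2% and 37.1%). Nudc, a cochaperone named for nuclear distribution, had 104, 401, 47.3 and 180, higher with arsenite 3.84-fold and 3.81-fold. Its null libraries were below the matching wild-type libraries by 2.21-fold without and 2.22-fold with arsenite. Ppp5c, a protein phosphatase, had 31.4, 8.86, 28.3 and 2.17, and Cdc37l1 36.5, 11.3, 21.9 and 5.38, both lowest in the null with arsenite. Ppid, a cyclophilin, had 18.6, 24.5, 39.04 and 4.66. Its difference of the arsenite effects, −3.20, was the most negative of the chaperone genes listed.

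Of 10 further HSP70 and exchange factor genes past the filter, 1 was higher and 3 lower with arsenite in wild type and 4 were lower in the null, and of 12 further HSP40 genes 1 was higher and 3 lower in wild type and 5 were lower in the null. The shares that were lower, 30.0% and 25.0% in wild type and 40.0% and 41.7% in the null, do not stand far from those of all genes, 35.7% and 37.1%. The 4 with the largest difference in either arsenite comparison are given for each list, so a direction that they share follows in part from this choice. The 1 higher gene of each list in wild type, Grpel1 (log2 difference 1.02) and Dnajc8 (1.52), is not among them. Bag4 had RPKM values of 6.86, 1.71, 6.85 and 0.544, Bag2 13.4, 9.67, 11.5 and 3.89, and Bag5 19.9, 9.42, 19.1 and 8.09. St13, the HSP70-interacting protein HIP, had 84.4, 78.5, 92.9 and 30.1. In all 4 the null with arsenite was the lowest library. Dnaja3, a mitochondrial HSP40, had 17.0, 7.06, 19.6 and 2.90, and Dnajc21 7.79, 3.65, 5.60 and 0.493. Dnajb2 had 21.6, 5.01, 13.8 and 2.55, and Dnajc5, the cysteine string protein of vesicles, 32.9, 9.94, 34.6 and 8.98. For each of these 8 genes both arsenite libraries were below their own control as deposited. Of the genes around the heat shock factors, Hsbp1, which encodes a binding protein of HSF1, had 63.8, 198, 108 and 243, and Serpinh1, the collagen chaperone HSP47, 284, 292, 485 and 194. Hspbap1 had 3.24, 1.71, 11.1 and 1.83. Hsf4, a further heat shock factor, had 0.0544, 0.158, 4.47 and 9.70 and, like Bag3, was above 1 only in the null libraries.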

How the data were processed

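Libraries were strand-specific and made after removal of ribosomal RNA, per the labels' protocols, whereas the molecule label reads polyA RNA; which selection was used is not settled. The submitters' processing notes name TopHat, HTSeq, Bowtie and deepTools and the build mm10, without roles or versions; for the annotation and the strand setting the sources used here give nothing. The authors deposited RPKM values in a table of 37224 genes and 4 columns, 1 per library. Symbols were found for 35449 genes. Depths and gene lengths were recovered from the whole-read steps of the RPKM values; lengths were found for 21617 genes, with a relative tolerance of 5e-12, and 348 of 519 small RNA genes had a length equal to their annotated span.

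Differences were computed with a pseudocount of 1 over the 12588 genes that reached an RPKM of 1 in any library, with no further scaling, and counted from 2-fold. For folds, 95% Clopper-Pearson limits on the split of a gene's reads between both libraries were turned into limits of the ratio. Such limits hold counting error alone and take reads as independent molecules. With 1 library per group no test was made. The code was tested on simulated data. The members, lists and alternatives were chosen with earlier results of these data known. All 39 members are described by class, and up to 4 genes of each further chaperone list with the largest difference in either arsenite comparison are named, with Dot1l and Hmox1 as checks. The length trend was a lowess curve (fraction 0.2, statsmodels 0.14.6). Alternatives were a pseudocount of 0.1, a filter at RPKM 5, no filter, centring, 75th percentile scaling, removal of the length trend and, added after the data were seen, rescaling to the same RPKM sum. Sequences are from RefSeq (GRCm38.p6). Python 3.11.15, pandas 2.3.3, numpy 2.4.6, scipy 1.17.1 and matplotlib 3.10.9 were used.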

Additional observations from a re-analysis of the deposited data

Results flagged for a closer look

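In 8 of the 39 genes arsenite went with a higher level in wild type and a lower level in the Dot1L null, with counting intervals on opposite sides of 1. These intervals hold counting error only, and the share of all genes that meet the same rule was not computed. Whether 8 of 39 is unusual is therefore not known. With 1 library per group this difference between genotypes was not tested. The difference of the arsenite effects (log2, null minus wild type) was −1.46 for Hspa4, −1.28 for Dnaja1 and −0.75 for Stip1. Among the CCT subunits it was −1.48 for Cct2, −0.69 for Cct3, −0.83 for Cct4, −0.83 for Cct7 and −1.62 for Cct8. The opposite directions depend on scaling, since none of the 8 held them in all 8 settings including the one reported: Hspa4, Cct2 and Cct8 did in 7, Cct7 in 6, Dnaja1 and Stip1 in 5, and Cct3 and Cct4 in 4. The sign of the difference itself was the same in every setting for all 8. The summed fibroblast markers were 2653 and 4990 RPKM in wild type and 2275 and 12118 in the null (control, arsenite), with the higher sums from S100a4 (688, 4191, 949 and 10957) while collagen genes such as Col1a1 (335, 63.9, 133 and 72.2) were lower with arsenite in both genotypes. Their part in the result was not tested.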

How the results depend on the processing

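Each group holds 1 library, so no replicate could be left out. No paired analysis was possible because the groups have 1 library each and the labels give no replicate numbers. Of the 39 genes, the sign held under all 7 alternatives in 18 for arsenite in wild type, 21 in the null, 33 for genotype without and 35 with arsenite, and 38 for the difference of the arsenite effects; no gene past 2-fold was past 2-fold the other way. Counts of the 39 genes followed scaling. The 8 higher genes in wild type became 15 after centring, 13 after 75th percentile scaling, 14 without the length trend and 4 at the same RPKM sum, a scaling added after the data were seen. The 6 lower ones became 3 after centring, 2 without the length trend and 15 at the same sum. Of all genes in wild type, 21.6%, 18.4%, 15.8% and 6.36% were higher under these 4 scalings. The shares lower were 19.4% after centring, 15.3% without the length trend and 61.8% at the same sum. In the null the 3 higher genes became 5, 6, 5 and 1 (centring, 75th percentile, length trend, same sum). The 16 lower ones became 7, 7, 6 and 25. Of all genes in the null, 23.4%, 23.0%, 20.1% and 8.51% were higher and 23.8%, 26.4%, 21.0% and 58.8% lower. The 4 genes higher in the untreated null became 7 after centring and 8 without the length trend (all genes 8.81% and 9.23%). The 12 genes lower in the null with arsenite became 7 and 6 (all genes 9.64% and 8.98%). Counts at or below −1 for the difference of the arsenite effects stayed between 13 and 16 (all genes 7.48% to 20.7%). The other 51 values lay within 1.5 times the reported count. The controls were deeper than the arsenite libraries, so genes with few reads, such as Hspa1a and Bag3 in wild type, are the least certain.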
